A study of Homo sapiens with 7 samples.

Results

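The T-box transcription factor genes described here are TBXT, EOMES, TBX1, TBX2, TBX3, TBX4, TBX5, TBX6, TBX18 and TBX20, taken by symbol from the deposited table of gene counts, where all 10 names were found among 59251 rows. They were read in H9, an established line of human embryonic stem cells, 48 h after transfection with guide RNA plasmids, in 4 libraries labelled CTRL and 3 labelled DJL1. Every library of both groups came from cells in the naive-state medium RSeT with 10 nM DZNep, which lowers histone methylation, and 5 nM TSA, a histone deacetylase inhibitor, and with the survival mix CEPT over the initial 16 h. The values are therefore those of cells under chromatin inhibitors in both arms, and the series holds no arm without them. The series concerns LINE1 elements next to the ribosomal DNA repeats. Neither the protein that the guides recruit nor the content of the CTRL plasmids is stated in the labels. The labels speak of cell sorting and the design text of direct RNA extraction, so whether a cell fraction was selected is unclear.

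T-box factors bind DNA through a shared domain, the T-box, and switch lineage programmes on or off in the early embryo. TBXT (brachyury) and EOMES start mesoderm and endoderm formation at gastrulation, TBX6 steers paraxial mesoderm, and the TBX1 and TBX2 subfamilies pattern the heart, pharynx and limbs. WNT, NODAL, BMP and FGF signals induce several of them, and in undifferentiated stem cells most are kept nearly silent, in part by Polycomb complexes. TBX3 differs in that it is also known from the pluripotency network of mouse embryonic stem cells.

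Total counts ran from 62277489 to 76691997 in CTRL and from 34634882 to 37795742 in DJL1, so the DJL1 libraries were the shallower ones without overlap. The spread between libraries was 3.46% within CTRL and 13.8% within DJL1 (edgeR's biological coefficient of variation). No batch is labelled, so depth, spread and any difference in library preparation cannot be told apart from the transfection. Since no label describes the replicates as separate cultures, the p-values reflect the scatter among these 7 libraries, and that scatter may be technical. The stem cell markers POU5F1, SOX2, NANOG and LIN28A were present at between 85.2 and 5354 CPM in the group means of both arms, where CPM is the gene count scaled to a common library size.

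Stretches upstream of 4 of these genes are shown to set a gene that did not pass the test, TBX6, beside 3 that rose. Whether these stretches take part in the regulation of the genes was not tested. Each has 250 bases ending at an annotated start, 5′ to 3′ on the gene's strand, from RefSeq on GRCh38.p14, with CpG dinucleotides in capitals. They lie at chr12:114408443-114408692 (TBX5, minus strand), chr6:84764599-84764848 (TBX18, minus strand), chr22:19756453-19756702 (TBX1, plus strand) and chr16:30091925-30092174 (TBX6, minus strand).
TBX5: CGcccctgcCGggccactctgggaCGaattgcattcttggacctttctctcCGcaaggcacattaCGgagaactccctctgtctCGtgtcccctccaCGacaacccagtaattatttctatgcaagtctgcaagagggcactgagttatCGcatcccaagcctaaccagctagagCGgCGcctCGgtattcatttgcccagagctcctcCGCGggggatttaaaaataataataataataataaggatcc
TBX18: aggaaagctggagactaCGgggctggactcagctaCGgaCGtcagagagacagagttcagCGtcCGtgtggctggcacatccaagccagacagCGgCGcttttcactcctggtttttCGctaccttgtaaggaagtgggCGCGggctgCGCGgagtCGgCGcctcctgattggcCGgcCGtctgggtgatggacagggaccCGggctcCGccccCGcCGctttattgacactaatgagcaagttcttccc
TBX1: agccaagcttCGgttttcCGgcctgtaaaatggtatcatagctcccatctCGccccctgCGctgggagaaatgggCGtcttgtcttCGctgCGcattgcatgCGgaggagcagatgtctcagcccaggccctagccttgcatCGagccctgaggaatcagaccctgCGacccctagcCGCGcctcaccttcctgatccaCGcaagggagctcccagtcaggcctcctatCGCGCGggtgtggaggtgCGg
TBX6: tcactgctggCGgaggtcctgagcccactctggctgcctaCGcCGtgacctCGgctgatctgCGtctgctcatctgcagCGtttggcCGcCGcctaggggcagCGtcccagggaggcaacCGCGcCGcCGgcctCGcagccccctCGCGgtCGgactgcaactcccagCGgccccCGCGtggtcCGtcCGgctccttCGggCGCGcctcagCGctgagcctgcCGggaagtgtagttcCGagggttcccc
These windows hold 13 CpG sites for TBX5, 20 for TBX18, 17 for TBX1 and 28 for TBX6. A second annotated start of TBX5, not printed, has 20 sites in its window. All 250 bases of that second TBX5 window and of the EOMES window lie in exons of protein-coding genes. There were 10 windows for 8 of the genes, and none for TBX2 and TBX3. Over these 10 the median was 20 CpG sites, and the ratio of observed to expected CpG had a median of 0.832. Over all 35116 windows in the table the corresponding medians were 11 sites and 0.558. The richest of the 10 windows was that of TBX20, the gene with the smallest rise, with 31 sites, followed by that of TBX6. The windows of TBXT, which rose by 1.96 on the log2 scale, came next with 23 and 22 sites. A relation between the number of sites and the fold changes was not tested. The T-box half-site TCACACC, on either strand, was in 2.76% of all windows and in 0 of the 10. The letters CTTTGAT, bound by TCF and LEF factors, were in 2.26% of all windows and the SMAD palindrome GTCTAGAC in 0.182%. Neither was in the 10. With shares this low, 0 matches in 10 windows is the usual outcome, so the absence of matches tells nothing about these genes.

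Of the 10 genes, 9 were higher in DJL1, 1 was not called and none was lower (edgeR, quasi-likelihood F-test, p adjusted by Benjamini-Hochberg over all 26062 tested genes, threshold 0.05). The same test called 52.0% of all tested genes, 27.0% higher and 25.1% lower, so a call alone was common in this comparison. The count of lower members was also 0 with edgeR's p left unadjusted at the same threshold, 0 by DESeq2 and 0 by limma-voom. The members' median log2 fold change was 1.96, against 0.01 over all tested genes and 0.14 over the 8672 tested genes with a mean CPM between those of the lowest and highest member (0.708 to 10.8 CPM). TBX3 alone sets the upper end of that range, and no other member had a group mean above the 3.50 CPM of EOMES in DJL1. Within that range of levels 34.7% of genes were called higher and 16.7% lower, and among its 4937 protein-coding genes 46.4% were called higher. A call with a rise of at least 2-fold was met by 8 of the 10 genes and by 10.7% of all tested genes. In 9 of the 10 genes every DJL1 value lay above every CTRL value, a separation in that direction that 27.4% of all tested genes had (53.6% in either direction). All 10 passed the filter on low counts in each of the 4 CTRL libraries, so none entered the test through DJL1 alone. Counts per gene and library ran from 11 to 731, which makes counting error a large part of the spread for the weakest genes.

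**Figure D1:**
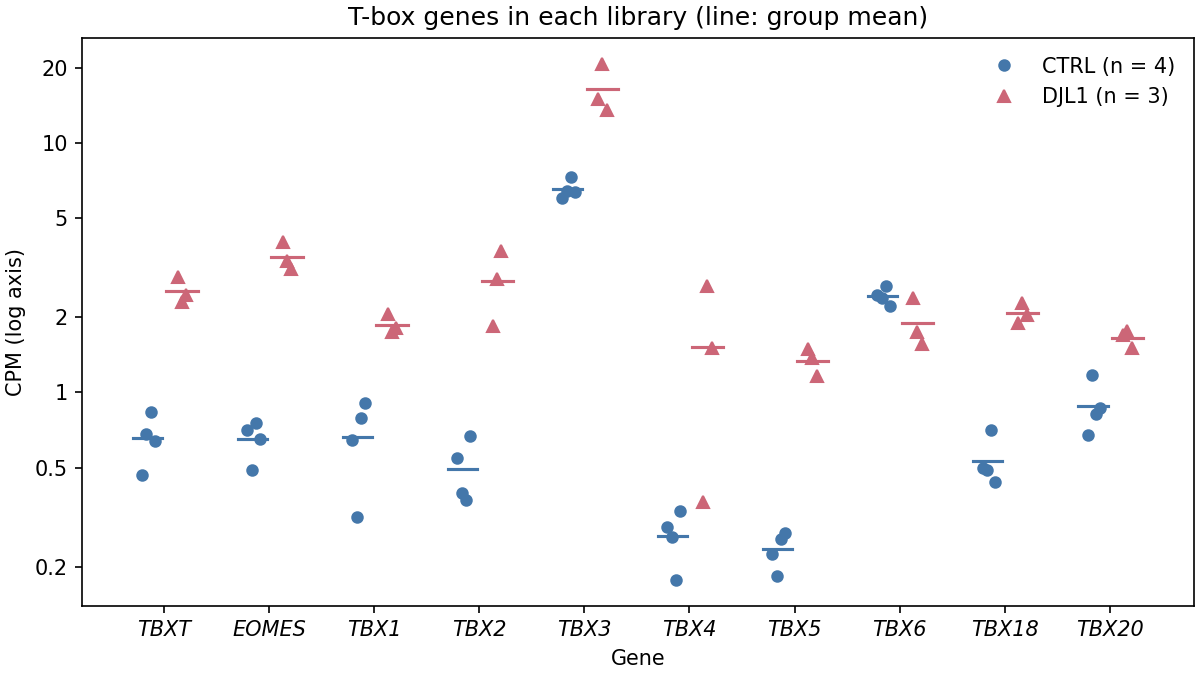
CPM of each gene (log axis) in every CTRL library (circles) and DJL1 library (triangles), with lines at the group means. The 2 sets of points are apart for 9 genes, narrowly for TBX4 (0.333 CPM highest in CTRL, 0.365 CPM lowest in DJL1), and overlap for TBX6.

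Among the gastrulation factors, TBXT and EOMES rose and TBX6 did not pass the test. TBXT, the founding family member and marker of the primitive streak and notochord (chromosome 6, 166157656 to 166168655, GRCh38.p14), was at 0.465, 0.684, 0.836 and 0.636 CPM in CTRL replicates 1 to 4 and at 2.90, 2.31 and 2.45 CPM in DJL1 replicates 1 to 3. The lowest DJL1 library was thus well above the highest CTRL library. The group means were 0.655 ± 0.153 CPM (SD, n = 4) and 2.55 ± 0.305 CPM (SD, n = 3), which is a rise of 1.96 ± 0.23 (SE) on the log2 scale (adjusted p = 3.21e-06). EOMES, which drives definitive endoderm and also works in T and NK lymphocytes (chromosome 3, 27715953 to 27722713), stood at 0.706, 0.487, 0.756 and 0.651 CPM in the CTRL libraries and at 4.02, 3.37 and 3.13 CPM in the DJL1 libraries. It rose by 2.44 ± 0.21 on the log2 scale (adjusted p = 1.13e-07), the smallest adjusted p of the 10. TBX6 (chromosome 16, 30085793 to 30091924) was measured at 2.46, 2.39, 2.67 and 2.23 CPM in CTRL and at 2.40, 1.74 and 1.56 CPM in DJL1. DJL1 replicate 1 fell among the CTRL libraries and the other 2 lay below them. The log2 fold change of TBX6 was -0.35 ± 0.18 (adjusted p = 0.117), with a 95% interval from -0.74 to 0.03. Leaving out DJL1 replicate 1 gave -0.57 with an adjusted p of 0.0171, so that 1 library decided whether TBX6 counted as lower.

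The TBX2 subfamily holds TBX2 and TBX3, mostly repressors, and TBX4 and TBX5, activators of limb and heart genes. They lie in the genome as the pairs TBX2-TBX4, 42956 bases apart on chromosome 17, and TBX5-TBX3, 261813 bases apart on chromosome 12, and all 4 rose. TBX3 was the most abundant member, with 6.02, 6.44, 7.32 and 6.39 CPM in CTRL and 15.03, 20.9 and 13.6 CPM in DJL1. Its fold change was the third smallest of the 10, 1.33 ± 0.12 on the log2 scale (adjusted p = 3.4e-07), and DJL1 replicate 2 stood above the other DJL1 libraries. TBX3 supplied between 41.9% and 50.9% of the summed counts of the 10 genes in every library. TBX2, linked to cell cycle control and to the non-chamber heart muscle, went from 0.546, 0.395, 0.370 and 0.666 CPM to 1.85, 2.85 and 3.70 CPM, a rise of 2.50 ± 0.28 (adjusted p = 2.02e-06).

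TBX5, the gene behind Holt-Oram heart and hand syndrome (chromosome 12, 114353911 to 114408442), had the lowest CTRL mean, with 0.225, 0.184, 0.257 and 0.273 CPM in the libraries, and reached 1.49, 1.37 and 1.16 CPM in DJL1. The replicates were tight in both groups, and the rise was 2.51 ± 0.31 on the log2 scale (adjusted p = 6.58e-06). Its antisense neighbour TBX5-AS1 overlaps it by 252 exonic bases in GENCODE release 29 and rose by 2.44 ± 0.33 (adjusted p = 1.44e-05), from 0.248 ± 0.0807 to 1.37 ± 0.138 CPM. The strand setting of the counting is not stated in the labels, so reads within the overlap cannot be assigned to either gene with certainty. TBX4, a hindlimb and lung factor (chromosome 17, 61452422 to 61485110), was the least even member. It was at 0.289, 0.263, 0.177 and 0.333 CPM in CTRL and at 0.365, 2.68 and 1.51 CPM in DJL1, replicate 1 being the low one. The 14 counts of that library give an exact Poisson 95% interval of 0.1997 to 0.613 CPM, which covers counting error only and includes the highest CTRL value. The rise of TBX4 was 2.50 ± 0.49 (adjusted p = 0.000462), and without DJL1 replicate 2 it was 1.79 (adjusted p = 0.00709). The same DJL1 library, replicate 1, was also the lowest of the group for TBX2, while TBX3 and TBX5 did not have their lowest value there.

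The members that belong to the TBX1 subfamily, which are only a part of it, are TBX1, TBX18 and TBX20. All 3 rose, TBX20 by the least. TBX1, the main heart and pharynx gene of the region lost in DiGeorge syndrome (chromosome 22, 19756703 to 19783593), was at 0.642, 0.316, 0.788 and 0.909 CPM in CTRL and at 2.06, 1.74 and 1.81 CPM in DJL1. The CTRL libraries spread over a wider ratio than the DJL1 libraries, and the rise was 1.502 ± 0.30 on the log2 scale (adjusted p = 0.000527). GNB1L, on the other strand, shares 280 exonic bases with TBX1 in GENCODE release 29 and had a log2 fold change of 0.21 (adjusted p = 0.125). TBX18, a factor of the epicardium, sinus node and ureter (chromosome 6, 84732496 to 84764598), went from 0.497, 0.487, 0.708 and 0.439 CPM to 1.90, 2.28 and 2.05 CPM. That is a rise of 1.96 ± 0.24 (adjusted p = 5.57e-06), with both groups compact. TBX20, needed for heart chamber growth (chromosome 7, 35202430 to 35254100), was at 0.674, 1.17, 0.820 and 0.863 CPM in CTRL and at 1.70, 1.77 and 1.51 CPM in DJL1. Its groups were apart, by the narrow gap between 1.17 and 1.51 CPM, and it rose by 0.90 ± 0.24 (adjusted p = 0.00443).

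**Figure D2:**
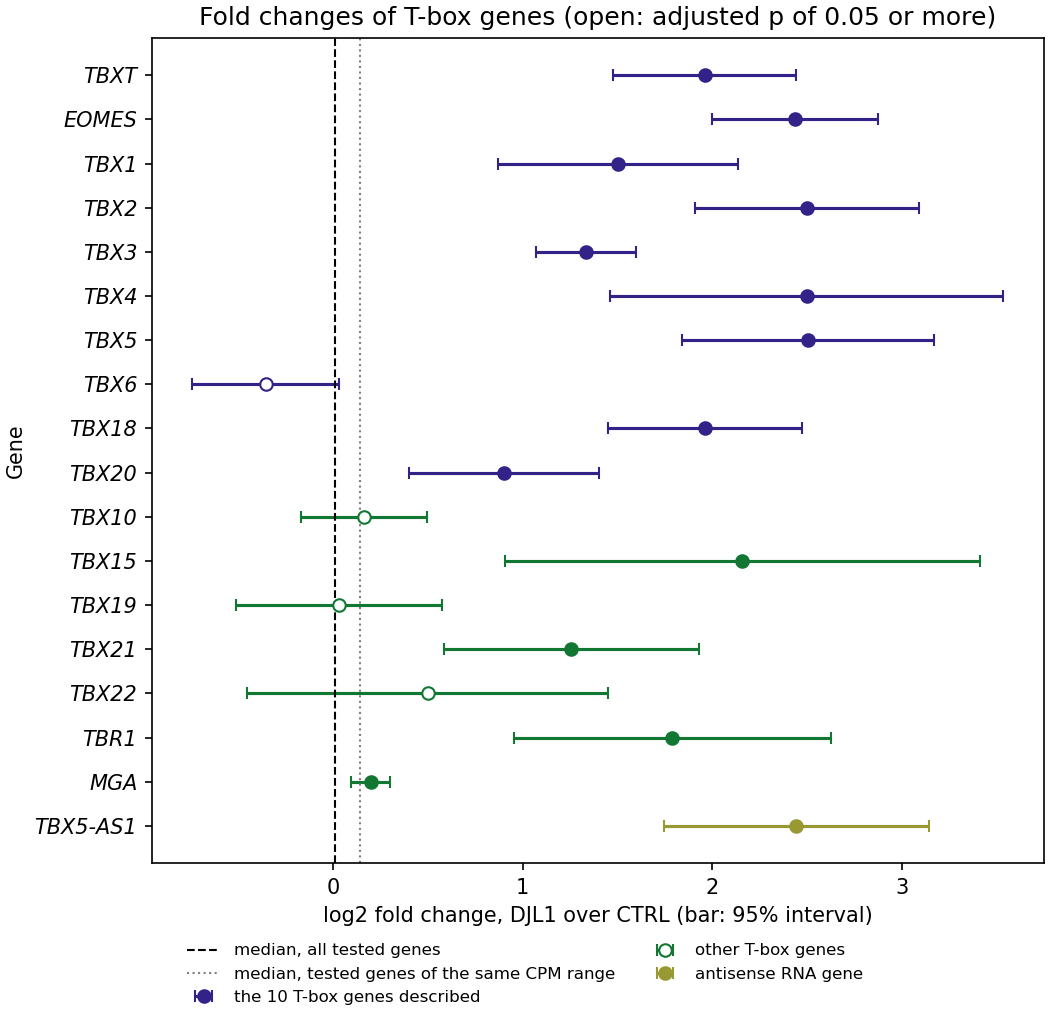
Log2 fold change of DJL1 over CTRL with its 95% interval for the 10 genes, the 7 other T-box genes and TBX5-AS1. Dashed and dotted lines mark the medians of all tested genes (0.01) and of tested genes within the members' CPM range (0.14). Open circles mark TBX6, TBX10, TBX19 and TBX22, which did not pass the test.

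Levels between genes were compared per kilobase of merged exons from GENCODE release 29, which may differ from the gene models used for counting. On that scale, CPM per kilobase, the order of group means in CTRL was TBX3 (1.10 ± 0.0926), TBX6 (0.777 ± 0.0585), TBX20 (0.470 ± 0.111), TBXT (0.249 ± 0.0581), TBX1 (0.185 ± 0.0716), EOMES (0.178 ± 0.0320), TBX2 (0.0820 ± 0.0230), TBX4 (0.0664 ± 0.0165), TBX18 (0.0629 ± 0.0141) and TBX5 (0.0538 ± 0.00898). The leading 3 were apart from each other and from TBXT in every CTRL library, while TBXT, TBX1 and EOMES overlapped as neighbours, as did TBX2, TBX4, TBX18 and TBX5. In DJL1 the order was TBX3 (2.77 ± 0.644), TBXT (0.971 ± 0.116), EOMES (0.959 ± 0.126), TBX20 (0.885 ± 0.0710), TBX6 (0.606 ± 0.141), TBX1 (0.522 ± 0.0473), TBX2 (0.464 ± 0.153), TBX4 (0.380 ± 0.290), TBX5 (0.307 ± 0.0380) and TBX18 (0.245 ± 0.0225). There TBX3 stayed apart from the rest, TBXT, EOMES and TBX20 overlapped, and so did the genes from TBX6 downward, neighbour by neighbour. TBX6 thus went from rank 2 to rank 5, and EOMES from rank 6 to rank 3. For scale, POU5F1 (OCT4) was at 1838 in CTRL and 1849 in DJL1 in the same unit, so even the DJL1 levels of these genes were low. In bulk RNA, a few cells with much of a transcript and many cells with little of it cannot be told apart.

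**Figure D3:**
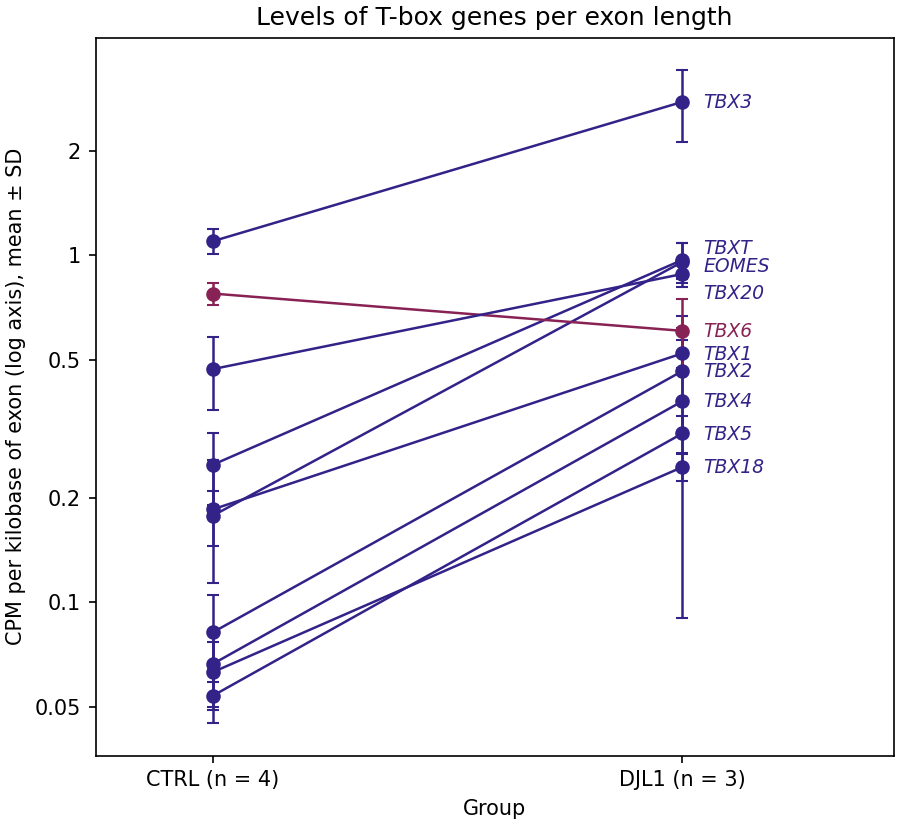
CPM per kilobase of exon (log axis, mean ± SD) in CTRL and DJL1 for each gene, with a line joining the 2 means. TBX6 is the only line that slopes down, from 0.777 to 0.606, and TBX3 is highest in both groups at 1.10 and 2.77.

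Of the 7 remaining T-box genes in the table, 4 were higher in DJL1 and 3 did not pass the test. With the 9 members, 13 of all 17 were called higher. The shares called higher were 27.0% of all tested genes and 46.4% of protein-coding genes within the members' CPM range. TBR1, a cortical neuron factor related to EOMES, rose by 1.79 ± 0.39 (adjusted p = 0.00122), TBX15, a skeletal and adipose factor, by 2.16 ± 0.59 (adjusted p = 0.00599) and TBX21, which directs type 1 helper T cells, by 1.26 ± 0.32 (adjusted p = 0.00336). TBX15 passed the count filter in 2 CTRL libraries and in all 3 of DJL1, so it needed DJL1 libraries to enter the test, and without it 3 of 6 remaining genes were higher. MGA, a large protein with a T-box that belongs to a Polycomb complex, was the one family gene expressed at a high level, at 77.7 ± 1.32 and 89.2 ± 6.40 CPM, and rose by 0.20 ± 0.05 (adjusted p = 0.00249). TBX10 (log2 fold change 0.16), TBX22 (0.50) and the pituitary factor TBX19 (0.03) had adjusted p of 0.405, 0.373 and 0.926. For these 3 the sign turned when single libraries were left out, and the 95% interval ran from -0.17 to 0.50 for TBX10, from -0.45 to 1.452 for TBX22 and from -0.51 to 0.58 for TBX19. The authors' deposited table of the same comparison lists all 10 members, 9 of them higher with an adjusted p under 0.05. In the authors' deposited table TBX6 has a log2 fold change of -0.35 and an adjusted p of 0.124, and TBX4 one of 2.10.

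Genes that flank the members on the chromosome were looked up after the T-box values had been seen. TBX6 sits in a dense stretch of genes, 417 bases from the phosphatase gene PPP4C (log2 fold change -0.25, adjusted p = 5.88e-05) and 390 bases from YPEL3 (0.18, adjusted p = 0.0535). The nearest tested gene on the far side of TBX2 was BCAS3 (0.14, adjusted p = 0.198), 7012 bases away, and that of TBX5 was RBM19 (-0.04, adjusted p = 0.509), 387586 bases away. Beyond TBX3, on the other flank of the TBX5-TBX3 pair and 585854 bases from it, the noncoding gene LOC124903082 rose by 1.00 (adjusted p = 0.0168). At TBXT the nearest tested gene at higher coordinates, PRR18, rose by 1.69 (adjusted p = 0.00114), and the overlapping noncoding gene LNCDAT had a log2 fold change of 1.26 (adjusted p = 0.158). Outside the T-box genes and TBX5-AS1, PPP4C, LOC124903082 and PRR18 were the only nearest or overlapping tested genes that were called. Those beside EOMES, TBX1, TBX4, TBX18 and TBX20 were not called, in a comparison that called 52.0% of all tested genes.

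Upstream signals went in both directions. Of 16 tested ligand genes that can induce T-box factors, 10 were higher and 5 lower, with a median log2 fold change of 0.40, against 27.0% and 25.1% of all tested genes called higher and lower. WNT3, which is needed for primitive streak formation, rose from 30.6 ± 1.66 to 49.2 ± 2.71 CPM and BMP4 from 20.3 ± 1.14 to 26.9 ± 1.44 CPM, and WNT11 rose by 1.19 on the log2 scale. NODAL fell from 174 ± 3.60 to 145 ± 12.1 CPM, FGF8 from 11.5 ± 0.952 to 8.24 ± 1.11 CPM and FGF4 by 0.54 on the log2 scale. Of 20 receptors and signal effectors 4 were higher and 11 lower (median -0.25), and without DJL1 replicate 2 the higher ones numbered 7. The receptor genes FGFR1, FZD7, ACVR2B and BMPR1A fell by 0.76, 0.60, 0.47 and 0.46, the NODAL co-receptor gene TDGF1 by 0.63 and beta-catenin (CTNNB1) by 0.35. Of 20 feedback targets and antagonists 9 were higher and 8 lower (median 0.12). LEFTY2 and LEFTY1, NODAL inhibitors and targets, fell by 0.67 and 0.52, the WNT target AXIN2 by 0.32 and the BMP target ID1 by 0.38, while BAMBI, a BMP pseudoreceptor, rose by 1.07. Targets of the same pathways also rose, here chosen after their values were seen. The WNT targets SP5, NKD1 and RNF43 rose by 1.46, 0.53 and 0.34, the BMP targets ID2 and ID3 by 0.66 and 0.61, and the BMP antagonist NOG by 1.68. Others of the same list were lower, namely ZNRF3, SMAD6, SMAD7 and SPRY4, with log2 fold changes of -0.26, -0.67, -0.12 and -0.25. SPRY2, an FGF feedback gene, had a log2 fold change of 0.04 (adjusted p = 0.516).

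Partner genes of the T-box programmes were called higher in most of the streak, somite and limb lists and in fewer of the cardiac genes. Of all tested genes 27.0% were called higher and 25.1% lower. Genes that passed the count filter in fewer than 3 CTRL libraries needed DJL1 libraries to reach the test, and counts without them, chosen after seeing the data, are given where they differ. Of 11 tested primitive streak and mesendoderm factors 8 were higher and 1 lower (median 1.58). SOX17 and FOXA2, which act with EOMES in endoderm, rose by 2.56 and 0.96, GSC, an organizer gene, by 1.60, and HAND1 by 2.15, whereas MIXL1, a streak homeobox gene, had means of 9.09 ± 0.534 and 9.80 ± 0.310 CPM, a difference of 0.11 on the log2 scale (adjusted p = 0.306). Of 11 presomitic and somite genes 8 were higher and 3 were not called (median 1.201), or 7 of 10 without MEOX2, which passed the filter in no CTRL library. The Notch ligand genes DLL1 and DLL3, both genes of the tissue in which TBX6 works, rose by 1.201 and 1.41, and RIPPLY2, TCF15 and FOXC1 by 1.87, 0.86 and 2.01. Of 16 cardiac genes 7 were higher, which is 43.8%, against 46.4% of protein-coding genes within the CPM range of the T-box members. Another 1 was lower and 8 were not called (median 0.95). The 8 were GATA5, TNNT2, MYH6, MYL7, ACTC1, TNNI1, GJA5 and SMYD1, mostly contractile and conduction genes, named after their values were seen. GATA4 and NKX2-5, which act together with TBX5 and TBX20, rose by 2.49 and 1.48, and GATA6 and NPPB by 1.21 and 1.46. NPPA, an atrial peptide gene controlled by TBX5, fell by 0.89 (adjusted p = 0.00997), a call that was lost with counts thinned to the smallest library (adjusted p = 0.332) and with a variance for each group (adjusted p = 0.0903). All 9 limb and epicardial genes were higher (median 1.92), or 8 of 8 without TCF21, which passed the filter in 2 CTRL libraries. Among them were PITX1, which acts upstream of TBX4, with a rise of 1.74, FGF10, downstream of TBX5 in the limb, with 1.83, WT1 with 2.06, TCF21 with 1.92, LMX1B with 3.42 and MSX2 with 1.92.

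**Figure D4:**
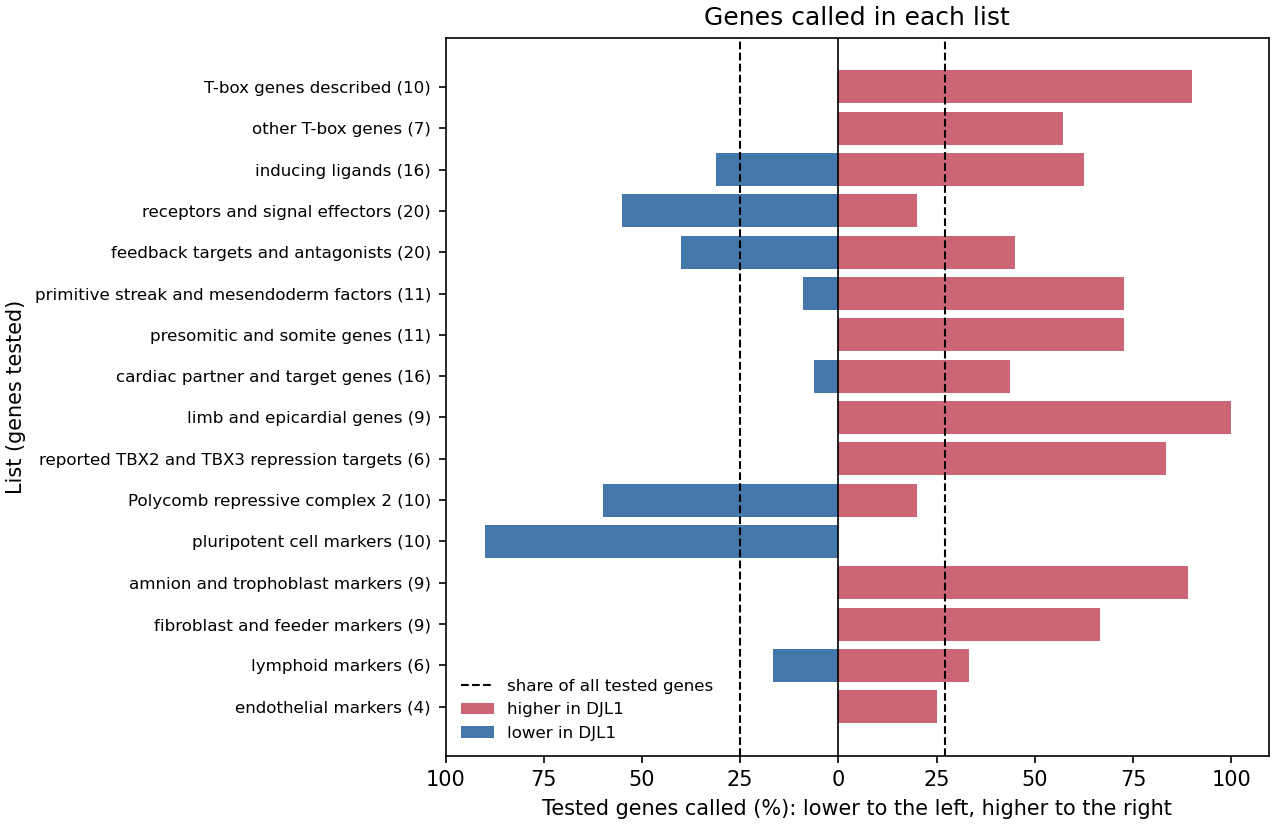
Share of the tested genes of each list (number tested in brackets) that were called higher (right) or lower (left) in DJL1. Dashed lines mark the shares of all tested genes (27.0% and 25.1%). Of protein-coding genes within the members' CPM range 46.4% were called higher. The 10 T-box genes and the limb and epicardial genes lie far to the right. So do the amnion and trophoblast markers (88.9% higher) and the TBX2 and TBX3 repression targets (83.3%). The receptors, Polycomb subunits and pluripotent cell markers lie to the left.

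Genes that TBX2 and TBX3 are known to repress were higher or not called. Of 6, 5 were higher and 1 was not called (median 0.94), against 27.0% of all tested genes called higher and 25.1% lower. CDKN1A and CDKN2B, cell cycle inhibitor genes, rose by 0.95 and 1.82, CDKN2A from 0.527 ± 0.182 to 1.55 ± 0.698 CPM and NDRG1 by 0.93. E-cadherin (CDH1) had a log2 fold change of -0.03 (adjusted p = 0.584). Of 10 genes of Polycomb repressive complex 2, 2 were higher and 6 lower (median -0.17). The methyltransferase gene EZH2 and the cofactor AEBP2 rose by 0.22 and 0.35, JARID2 and RBBP7 fell by 0.15 and 0.35, and SUZ12 had a log2 fold change of -0.04 (adjusted p = 0.492). EED fell by 0.18 (adjusted p = 0.025), which was lost in 6 of 19 alternatives.

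Among markers of other cells, most of the amnion and trophoblast list and of the fibroblast and feeder list were called higher. The same comparison called 27.0% of all tested genes higher and 25.1% lower. The shares called higher were near that for lymphoid (33.3%) and endothelial (25%) markers. Of 9 tested amnion and trophoblast markers 8 were higher, or 7 of 8 without TFAP2B, which passed the filter in no CTRL library, and the summed level of the 12 listed genes was 13.8 to 17.04 CPM in CTRL and 42.1 to 51.8 CPM in DJL1, with VTCN1, CGA and VGLL1 below 0.1 CPM averaged over the 7 libraries. GATA3 and GATA2 rose by 2.54 and 1.90 and WNT6 by 1.84, while GABRP had a log2 fold change of 0.31 (adjusted p = 0.318). Of 9 tested fibroblast and feeder markers 6 were higher, with sums of 547 to 564 CPM in CTRL and 822 to 943 CPM in DJL1, carried mainly by COL1A1 and COL1A2. The call of COL5A1 (0.20), whose groups overlapped, was lost in 10 of 19 alternatives and that of THY1 (0.14) in 2. LUM and DCN were below 0.1 CPM in the same average. Of 6 lymphoid markers 2 were higher and 1 lower (sums of 3.72 to 4.09 and 5.22 to 8.42 CPM), with PTPRC and CD2 below 0.1 CPM in the same average, and of 4 endothelial markers 1 was higher (sums of 17.3 to 18.8 and 17.7 to 21.6 CPM). These small counts changed when single libraries were left out. Of 10 pluripotent cell markers 9 were lower and 1, POU5F1, was not called (median -0.46), with POU5F1 at 5324 ± 73.1 and 5354 ± 269 CPM. The contribution of other cells to the T-box values was not tested.

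**Figure D5:**
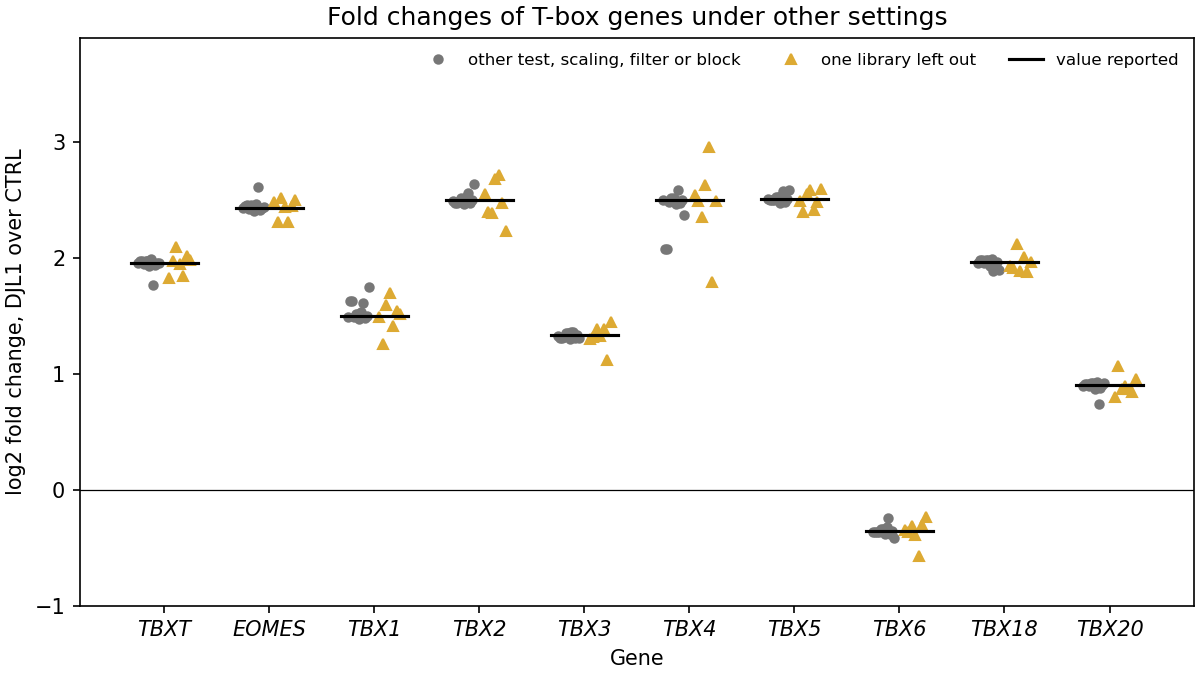
Log2 fold change of each of the 10 genes as reported (line), under other tests, scalings, filters and the replicate block (circles) and with 1 library left out (triangles). TBX4 spans the widest range, 1.79 to 2.96, and no gene crosses 0.

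The calls changed little with the processing. Over 19 alternatives, 188 of 189 values of the 10 genes kept their direction and their side of the threshold, the exception being TBX6 as given above. EOMES ran from 2.31 to 2.61, TBX5 from 2.40 to 2.59, TBX18 from 1.88 to 2.13, TBXT from 1.77 to 2.09, TBX2 from 2.24 to 2.72, TBX3 from 1.12 to 1.44, TBX1 from 1.26 to 1.75 and TBX20 from 0.75 to 1.07. A filter of 1 CPM in at least 3 libraries removed TBX4 and left 8 genes called higher. TBXT, EOMES, TBX1, TBX2, TBX5 and TBX18 were under 1 CPM in every CTRL library and met this filter through DJL1 alone. TBX20 needed DJL1 libraries as well, so this setting is no separate check of these genes.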

How the data were processed

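The authors deposited raw counts per gene symbol for 7 poly(A) RNA-seq libraries. Tools listed in the submitters' processing notes, without roles, are HISAT2 2.2.1, Trim Galore 0.4.0, Subread 1.5.0 and featureCounts, with GRCh38 and hg38 as builds. The authors' deposited table of the comparison holds log2 fold changes, p-values and adjusted p-values and, per the file headers, average expression, t and log odds scores that were not used. The deposited log table was not used.

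Groups were read from sample titles. Counts were filtered with filterByExpr (minimum count 10, total 15), scaled by TMM and tested with edgeR 4.0.16 (quasi-likelihood, robust, 2-sided, Benjamini-Hochberg at 0.05), with limma 3.58.1 and DESeq2 1.42.0 as alternatives (R 4.3.3), and the tests were tried on simulated counts. Each standard error is the log2 fold change over the root of its F value. Positions are from RefSeq (57842 of 59251 symbols matched). Named genes were all members, the other T-box genes, antisense rows and, per list, the leading 4 genes plus up to 2 with the smallest adjusted p. The members and lists were chosen with earlier results of these data known. The values of 1 list gene are not reported here. Alternatives were other tests, scalings, filters, thinning, protein-coding genes, a threshold of 0.01, leaving out each library and a replicate block.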

Additional observations from a re-analysis of the deposited data

How the results depend on the processing

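The number of T-box genes called higher was 9 under 18 of 19 alternatives and 8 with the stricter filter, which most of the 8 met only with DJL1 libraries. With 1 library left out, the genes called lower ran from 0 to 1 and the share of all tested genes called from 48.2 to 52.2%. With no filter 44410 genes were tested and 32.1% of them called. The labels do not say whether the replicate numbers pair the libraries. Same-numbered CTRL and DJL1 libraries had deviations correlated at -0.04 to -0.01 across genes, and none was best matched by its own number. All pairs of libraries lay between -0.0388 and 0.0361. Deviations from the means of such small groups cannot show whether libraries shared a culture or day. With the number as a replicate block, 44.0% of tested genes and 9 T-box genes higher were called. Counts in lists that moved by over 1.5 times were receptors higher (4, and 7 without DJL1 replicate 2), streak factors higher (8, and 5 with the stricter filter), cardiac genes lower (1, and 0 in 2 settings), lymphoid markers higher (2, and 1 in 3 settings) and lower (1, and 0 in 10 settings) and endothelial markers higher (1, and 0 to 2 in 3 settings). Single fold changes were followed only for the tested T-box and antisense rows and the list genes named by the rule above. None of these that was called in the main test turned its sign. Some that were not called did so as follows, and the cause was not tested. TBX19 was at -0.0716 under both voom fits and -0.00768 with the replicate block, and ran from -0.28 to 0.34 with 1 library left out, with -0.02 without CTRL replicate 2 and -0.06 without DJL1 replicate 1. Over the same leave-one-out fits TBX10 ran from -0.0425 to 0.31, TBX22 from -0.34 to 0.78, GABRP from -0.0623 to 0.51, CD3E from -0.28 to 0.95, POU5F1 from -0.0424 to 0.0256, TEK from -0.00509 to 0.136 and TIE1 from -0.198 to 0.0230. CD3E was at -0.52 under both voom fits and -0.0500 with the replicate block. POU5F1 was at -0.00129 with DESeq2 and with relative log expression factors, -0.0231 with no filter and -0.0154 with protein-coding genes alone. CDH1 was at 0.00257 with the stricter filter and TIE1 at 0.00614 with thinned counts.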

Other observations

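Several genes of the T-box programmes did not reach the count filter and are given as values only. MSGN1, a presomitic target of TBX6 and TBXT, had a mean of 0.0698 CPM in CTRL and 0.399 CPM in DJL1. Its groups did not overlap, a separation in that direction that 27.4% of all tested genes had. That separation rested on 5 counts in DJL1 replicate 3 (0.135 CPM) against 8 counts in CTRL replicate 2 (0.105 CPM). HAND2, a heart and limb factor, was at 0.0573 and 0.374 CPM, and BMP10, a heart trabeculation ligand, at 0.0581 and 0.371 CPM. MESP1, which acts downstream of EOMES and TBXT in cardiac mesoderm, was at 0.112 and 0.0660 CPM, and its relative MESP2 at 0.0959 and 0.105 CPM. The groups overlapped for HAND2, BMP10, MESP1 and MESP2. BMP10 and MESP2 were chosen after their values were seen.

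Among the antisense rows, TBX2-AS1 had 9, 2, 4 and 9 counts in CTRL and 10, 0 and 5 in DJL1. TBX3-AS1 had 0 counts in the 4 CTRL libraries and 6, 1 and 0 in DJL1, and TBX18-AS1 had 1 count in all 7 libraries together. These 3 rows were not tested.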
